A study of Mus musculus with 6 samples.

Results

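The genes described here are 34 markers of endothelial cells, the cells that line blood and lymph vessels, as they were counted in digests of neonatal mouse cartilage. They were taken by symbol from a gene table of 43346 rows, and all 34 were found once. The table holds 6 mRNA libraries of epiphyseal chondrocytes, labelled male, C57BL/6 and 5 days old. The wild type group (WT) and the Girk3-null group (Girk3-/-, genotype label Girk3 KO) have 3 libraries each, stated to be biological replicates. Girk3 is a G protein-gated potassium channel subunit encoded by Kcnj9, and no Cre driver, transgene or treatment is named for either group. Cells were freed with collagenase II overnight, washed and lysed, and no step that would sort chondrocytes from vessel cells is given in the sources used here. The label therefore names chondrocytes, while the 34 genes described here were chosen as markers of another cell type. Other cells also express some of them, and which cells their RNA came from was not tested.

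Cartilage itself has no vessels, but the bone ends of a newborn mouse are surrounded by a vascular perichondrium, are entered by cartilage canals where ossification starts, and border the invading capillaries of the growth plate. Endothelial cells there respond to vascular endothelial growth factor (VEGF), which hypertrophic chondrocytes secrete, through receptor tyrosine kinases. Angiopoietins act on the Tie receptors to keep vessels stable, and adherens and tight junction proteins hold the vessel wall together. The 34 genes cover these receptors, the junctions, surface glycoproteins, secreted products, G protein-coupled receptors and the transcription factors of the lineage.

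Library totals ran from 34279516 to 60392837 counts, so a count of 0 allows at most 3 counts, or 0.0497 to 0.0875 CPM (counts scaled to equal library size), by counting error alone. All 34 genes had counts in all 6 libraries, from 12 counts upward in a library and from 368 to 10579 counts in total, and all 34 passed the low-count filter. Kcnj9 had 0 counts in every library, wild type included, and so does not check the genotype labels. Girk3-null replicate 1 stands apart: 4 Y-linked genes had 16088 counts in it against 0 to 7 in the other 5, and Xist had 19 counts against 67346 to 144825. Its transcripts match its male label and those of the other 5 libraries do not. Log2 fold changes refitted without this library close the account of each gene group below. Levels are CPM scaled with TMM factors (library sizes corrected for composition), and RPKM, which is also scaled by gene length, is used where genes are compared with one another.

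Promoter sequences were available for 16 of the 34 genes, and they are shown because endothelial promoters are known to be bound by ETS factors. The RefSeq table (GRCm38.p6) gave the 250 bases before each start. The motifs searched on both strands were CAGGAAG and CCGGAAG (ETS) and ACAATGG (Sox). The first motif occurred for 6 of the 16 genes (Apln, Calcrl, Egfl7, Emcn, Rasip1 and Robo4), or 37.5%, against 12.1% of 27025 genes in the same table. CCGGAAG and ACAATGG occurred for 0 of the 16, against 7.83% and 3.46% of all genes. Either ETS motif occurred for 37.5% of the 16, against 19.0% of all genes. The matches of Calcrl, Rasip1 and Robo4 lay in bases annotated as exon, of which their windows held 145, 250 and 75. Both ETS motifs share the core GGAA and differ by a letter. Of the following 5 sequences, the first 3 hold the motif, marked in capitals (CTTCCTG is its reverse complement), and the last 2 belong to Cldn5 and Tek, among the genes with the largest differences, and hold none of the 3. Each is written 5′ to 3′ on the strand of its gene and stops before the first annotated exon base.
Egfl7 (second of 3 starts), chr2:26583615-26583863, plus strand: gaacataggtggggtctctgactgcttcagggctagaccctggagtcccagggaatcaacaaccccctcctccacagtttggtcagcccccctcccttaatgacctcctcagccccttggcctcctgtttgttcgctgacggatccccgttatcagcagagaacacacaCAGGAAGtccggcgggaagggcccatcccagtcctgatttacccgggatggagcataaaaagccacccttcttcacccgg
Emcn, chr3:137340828-137341066, plus strand: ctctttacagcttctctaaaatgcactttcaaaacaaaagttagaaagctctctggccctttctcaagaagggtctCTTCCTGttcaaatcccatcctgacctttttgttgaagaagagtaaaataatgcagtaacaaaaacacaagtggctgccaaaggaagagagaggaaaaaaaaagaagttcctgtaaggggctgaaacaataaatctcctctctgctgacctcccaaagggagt
Apln, chrX:48034854-48035103, minus strand: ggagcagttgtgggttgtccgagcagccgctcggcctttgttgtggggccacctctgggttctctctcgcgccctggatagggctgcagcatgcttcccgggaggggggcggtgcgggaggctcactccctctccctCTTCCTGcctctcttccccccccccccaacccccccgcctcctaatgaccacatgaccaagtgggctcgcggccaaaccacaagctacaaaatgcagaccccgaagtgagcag
Cldn5, chr16:18776597-18776846, plus strand: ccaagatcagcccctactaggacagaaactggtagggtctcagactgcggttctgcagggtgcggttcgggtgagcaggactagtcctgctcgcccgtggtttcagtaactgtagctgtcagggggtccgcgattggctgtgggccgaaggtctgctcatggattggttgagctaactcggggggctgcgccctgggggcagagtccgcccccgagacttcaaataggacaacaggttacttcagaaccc
Tek, chr4:94739039-94739288, plus strand: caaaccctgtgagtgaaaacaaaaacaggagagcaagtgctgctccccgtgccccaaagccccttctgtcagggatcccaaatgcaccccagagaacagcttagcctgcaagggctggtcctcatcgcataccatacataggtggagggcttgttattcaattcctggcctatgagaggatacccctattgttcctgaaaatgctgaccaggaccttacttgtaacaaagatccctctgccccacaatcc

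Genes that hold the motif were not alike in their values. Emcn and Egfl7 lay below every wild type value in all 3 Girk3-null libraries, Apln did not, and Cldn5 and Tek, which hold none of the 3 motifs, were also lower throughout. These matches are letters in a window and were not tested as binding sites.

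The question put to the 34 genes was whether endothelial transcripts differ between Girk3-null and wild type digests. Most were lower in the Girk3-null libraries: 29 of 34 had a negative log2 fold change (Girk3-null over wild type), with a median of -1.03, while 48.2% of the 17554 genes tested were negative and their median was 0.01. In 22 of 34 genes every Girk3-null library lay below every wild type library, and in 0 of 34 above, against 10.2% and 9.86% of all tested genes. The 34 genes were chosen with earlier results of these data known. They also vary together across the same 6 libraries, so these counts are not independent observations. The quasi-likelihood test of edgeR called none of the 34 at a Benjamini-Hochberg threshold of 0.05 (2, Cldn5 and Calcrl, without wild type replicate 3), and 0% of all genes were called lower and 0.0057% (1 gene) higher. At an unadjusted p under 0.05 there were 18 lower and 0 higher (8 in all without wild type replicate 2), against 7.02% and 7.49% of all tested genes. DESeq2, run as an alternative, called 6 lower (Cldn5, Calcrl, Tek, Kdr, Cd93 and Egfl7) and 0 higher, against 0.997% and 1.14% of the 15852 genes for which it gave an adjusted p. Without Girk3-null replicate 1, edgeR called 0 of the 34, the median was -0.69, and 22 genes lay below every wild type library and 1 (Vwf) above, where 14% and 14.3% of 17980 tested genes do so with 2 Girk3-null libraries. In RNA from whole digests, fewer endothelial cells and less RNA per endothelial cell cannot be told apart.

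**Figure D1:**
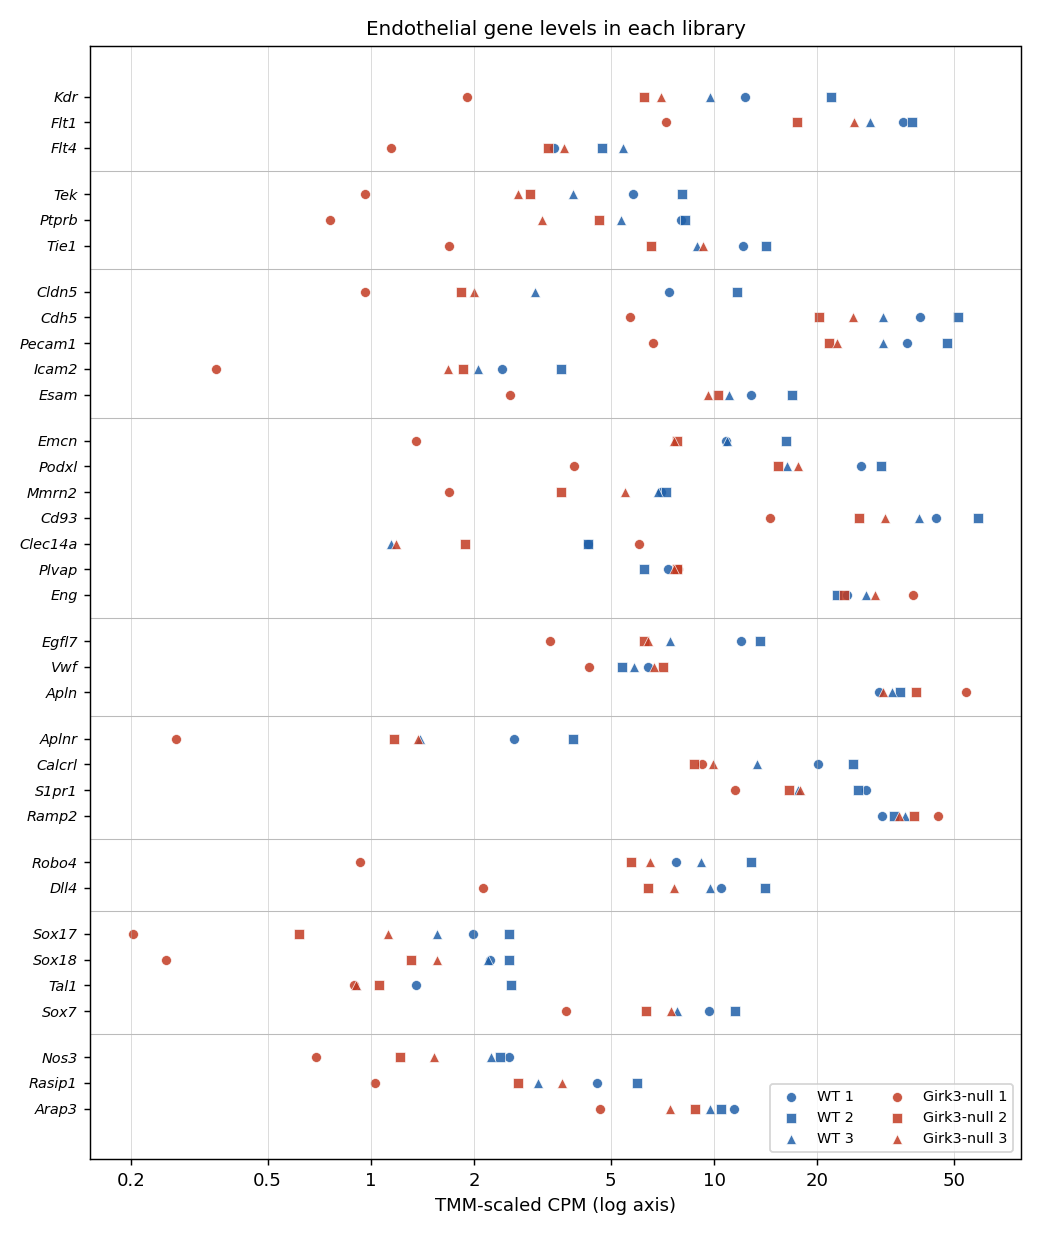
TMM-scaled CPM (log axis) of the 34 endothelial genes, 1 point per library, with wild type in blue and Girk3-null in red, grouped by role from the VEGF receptors at the top to intracellular signalling proteins at the bottom. Girk3-null replicate 1 (red circle) is the lowest library for 28 of the 34 genes.

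All 3 VEGF receptor genes had negative log2 fold changes, and edgeR called none of them. Kdr, the main signalling receptor for VEGF-A (ENSMUSG00000062960; chromosome 5, 75932827 to 75978458, mm10), measured 12.3, 21.9 and 9.71 CPM in wild type replicates 1, 2 and 3. It measured 1.91, 6.24 and 7.01 CPM in Girk3-null replicates 1, 2 and 3, all below the lowest wild type value. The log2 fold change of Kdr was -1.55 (standard error 0.47, adjusted p = 0.291 in edgeR, n = 3 per group). Flt1, which binds VEGF-A tightly and signals weakly, measured 35.5, 37.8 and 28.5 CPM in wild type and 7.22, 17.4 and 25.6 CPM in Girk3-null libraries. The groups did not overlap, and the log2 fold change of Flt1 was -1.03 (standard error 0.38, adjusted p = 0.301 in edgeR). Flt4, the VEGF-C receptor that is strong in lymphatic and sprouting endothelium, was the one of the 3 whose groups overlapped. It had 3.41 CPM at the lowest in wild type and 3.65 CPM at the highest in Girk3-null libraries, with a log2 fold change of -0.76. Without Girk3-null replicate 1 the log2 fold changes of Kdr, Flt1 and Flt4 were -1.14, -0.66 and -0.38.

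The Tie receptor system showed the same direction. Tek, the angiopoietin receptor Tie2, measured 5.80, 8.06 and 3.88 CPM in wild type libraries. In the Girk3-null libraries Tek was at 0.962, 2.91 and 2.68 CPM, below all of these. Its log2 fold change was -1.45 (standard error 0.43, adjusted p = 0.291 in edgeR, 0.0334 in DESeq2 and 0.0334 to 0.814 over all alternatives). Ptprb, the phosphatase that restrains Tie2 signalling, had groups that did not overlap as well, at 7.20 ± 1.61 CPM in wild type and 2.85 ± 1.95 CPM in Girk3-null libraries (mean ± SD, n = 3). Tie1, the partner receptor of Tie2, measured 8.93 to 14.2 CPM in wild type and 1.69 to 9.29 CPM in Girk3-null libraries, so its groups overlapped slightly. Without Girk3-null replicate 1 those of Tek, Ptprb and Tie1 were -1.08, -0.88 and -0.57.

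Genes of endothelial junctions and adhesion held the largest difference, and all 5 had groups that did not overlap. Cldn5, the tight junction claudin of endothelium (ENSMUSG00000041378; chromosome 16, 18776847 to 18778260, mm10), measured 7.41, 11.7 and 3.00 CPM in wild type libraries. In Girk3-null replicates 1, 2 and 3 Cldn5 was at 0.962, 1.83 and 1.995 CPM. The spread within wild type was 3.90-fold between the highest and the lowest library, and still no Girk3-null value reached it. Cldn5 had a log2 fold change of -2.23 (standard error 0.49, adjusted p = 0.291 in edgeR, 0.000657 in DESeq2 and 0.000657 to 0.814 over all alternatives). Cdh5, or VE-cadherin, the adherens junction protein that defines the lineage (ENSMUSG00000031871; chromosome 8, 104101625 to 104144502, mm10), measured 39.7, 51.3 and 31.0 CPM in wild type libraries. It measured 5.69, 20.1 and 25.4 CPM in Girk3-null libraries, with replicate 1 far below the other 2. For Cdh5 the log2 fold change was -1.26 (standard error 0.46, adjusted p = 0.299 in edgeR). Pecam1, the adhesion molecule CD31, measured 36.5, 47.8 and 31.1 CPM against 6.65, 21.6 and 22.9 CPM, a log2 fold change of -1.18 (standard error 0.40, adjusted p = 0.292 in edgeR). Esam and Icam2, adhesion molecules of endothelium that platelets also carry, had log2 fold changes of -0.87 and -1.07 with unadjusted p-values of 0.0840 and 0.0782 in edgeR. Refitted without Girk3-null replicate 1, Cldn5 was at -1.95, Cdh5 at -0.84, Pecam1 at -0.79, Icam2 at -0.60 and Esam at -0.44.

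The 7 genes grouped here as surface glycoproteins, among them Mmrn2, which encodes a matrix protein, did not behave alike. Cd93, a receptor for the matrix protein multimerin 2, measured 44.2, 58.8 and 39.4 CPM in wild type and 14.6, 26.4 and 31.4 CPM in Girk3-null libraries. Its groups did not overlap, and the log2 fold change of Cd93 was -0.98 (standard error 0.27, adjusted p = 0.291 in edgeR). Mmrn2, which encodes that matrix protein, was nearly constant in wild type at 7.05 ± 0.196 CPM and was lower and more spread in Girk3-null libraries at 3.59 ± 1.92 CPM (mean ± SD, n = 3). Emcn, an endothelial sialomucin that marks the bone capillaries coupled to ossification, measured 10.8, 16.2 and 10.9 CPM against 1.35, 7.77 and 7.64 CPM. Podxl, a sialomucin of the vessel lumen, overlapped between groups (16.3 to 30.6 CPM in wild type, 3.91 to 17.6 CPM in Girk3-null libraries). Refitted without Girk3-null replicate 1, Cd93, Mmrn2, Emcn and Podxl had log2 fold changes of -0.72, -0.64, -0.71 and -0.58.

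Clec14a, Plvap and Eng, the other 3 surface glycoproteins, had differences close to 0 or positive. Clec14a, a lectin-like receptor that also binds Mmrn2, measured 4.30, 4.29 and 1.15 CPM in wild type and 6.04, 1.88 and 1.18 CPM in Girk3-null libraries. The 3 libraries with title numbers below 200, wild type 1 and 2 and Girk3-null 1, held its high values, and the log2 fold change of -0.08 became -1.08 without Girk3-null replicate 1. Plvap, the diaphragm protein of fenestrated capillaries, lay between 6.25 and 7.85 CPM in all 6 libraries. Eng, or endoglin, a co-receptor for TGF-beta family ligands that stromal cells also express, was highest in Girk3-null replicate 1 at 38.001 CPM and lay between 22.8 and 29.5 CPM in the other 5. Without that library Plvap and Eng were at 0.12 and 0.097, from 0.13 and 0.29.

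Of the 3 secreted products, 1 had a negative log2 fold change, and edgeR called none. Egfl7, a matrix-bound factor of vessel formation, measured 11.9, 13.6 and 7.44 CPM in wild type and 3.32, 6.26 and 6.42 CPM in Girk3-null libraries. These groups did not overlap, and its log2 fold change was -1.05 (standard error 0.31, adjusted p = 0.291 in edgeR). Vwf, the clotting factor stored by endothelium and megakaryocytes, measured 5.89 ± 0.525 CPM in wild type and 6.04 ± 1.51 CPM in Girk3-null libraries (mean ± SD, n = 3). Apln, the ligand apelin (ENSMUSG00000037010; chromosome X, 48025146 to 48034853, mm10), measured 30.3, 34.7 and 32.9 CPM in wild type and 54.4, 38.9 and 31.1 CPM in Girk3-null libraries. The highest value was that of Girk3-null replicate 1, and the log2 fold change of 0.35 (standard error 0.19, adjusted p = 0.406 in edgeR) was 0.10 without it. Without the same library Egfl7 was at -0.80 and Vwf at 0.23, from 0.032.

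Ligand and receptor of the apelin pair had log2 fold changes of opposite sign, and edgeR called neither. Aplnr, the apelin receptor of venous and sprouting endothelium, measured 2.60, 3.88 and 1.39 CPM in wild type libraries. Its Girk3-null values were 0.270, 1.17 and 1.37 CPM, the highest of them just under the lowest wild type value. The log2 fold change of Aplnr was -1.53 with a standard error of 0.58. It was -1.05 without Girk3-null replicate 1.

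The adrenomedullin receptor is built from Calcrl and the accessory protein Ramp2. Calcrl (ENSMUSG00000059588; chromosome 2, 84330626 to 84425411, mm10) measured 20.01, 25.3 and 13.3 CPM in wild type libraries. In the Girk3-null libraries it was at 9.197, 8.71 and 9.94 CPM. Here Girk3-null replicate 1 did not stand apart from the other 2, and the log2 fold change was -1.08 with all 6 libraries (standard error 0.22, adjusted p = 0.291 in edgeR, 0.00235 in DESeq2 and 0.00235 to 0.814 over all alternatives) and -1.07 without that library. Ramp2 measured 33.4 ± 2.54 CPM in wild type and 39.3 ± 5.33 CPM in Girk3-null libraries (mean ± SD, n = 3), with a log2 fold change of 0.24 (adjusted p = 0.402 in edgeR) and 0.13 without Girk3-null replicate 1. This level is uncertain, since 33.4% of the exon bases of Ramp2 are shared with Vps25. S1pr1, the sphingosine 1-phosphate receptor of vessels and lymphocytes, measured 27.7, 26.3 and 17.6 CPM against 11.5, 16.5 and 17.8 CPM, a log2 fold change of -0.64 (standard error 0.22, adjusted p = 0.292 in edgeR). The S1pr1 groups overlapped by a small margin. Without Girk3-null replicate 1 S1pr1 had -0.47.

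Both genes of vessel guidance were lower in all Girk3-null libraries. Robo4, a roundabout receptor that stabilises vessels, measured 7.73 to 12.8 CPM in wild type and 0.928, 5.71 and 6.52 CPM in Girk3-null libraries. Dll4, the Notch ligand of tip and arterial cells, measured 9.71 to 14.0 CPM in wild type and 2.13, 6.42 and 7.64 CPM in Girk3-null libraries. Their log2 fold changes were -1.19 and -1.10, and -0.69 and -0.70 without Girk3-null replicate 1.

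Among the transcription factors, the 3 SoxF genes were each lower with no overlap. Sox17, the arterial member of the family, measured 1.99, 2.52 and 1.56 CPM in wild type and 0.202, 0.619 and 1.12 CPM in Girk3-null libraries. Its log2 fold change was -1.70 (standard error 0.53, adjusted p = 0.291 in edgeR), and 12 counts in Girk3-null replicate 1 were the fewest of any of the 34 genes in a library. Sox18 and Sox7 had log2 fold changes of -1.19 and -0.73. Tal1, a regulator shared by endothelium, erythroid cells and megakaryocytes, overlapped between groups, with 1.60 ± 0.855 CPM in wild type and 0.951 ± 0.0898 CPM in Girk3-null libraries (mean ± SD, n = 3). With Girk3-null replicate 1 left out, Sox17, Sox18, Sox7 and Tal1 were at -1.23, -0.69, -0.48 and -0.71.

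The 3 intracellular signalling genes had log2 fold changes between -1.07 and -0.60. Nos3, the endothelial nitric oxide synthase, was tight in wild type at 2.52, 2.37 and 2.24 CPM and lower in all Girk3-null libraries at 0.692, 1.21 and 1.53 CPM. The log2 fold change of Nos3 was -1.07 (standard error 0.32, adjusted p = 0.291 in edgeR). Arap3, a regulator of vessel sprouting, also had groups without overlap (log2 fold change -0.60), while Rasip1, a Ras-interacting protein of vessel lumen formation, overlapped (-0.91). With that library left out, Nos3, Arap3 and Rasip1 were at -0.80, -0.37 and -0.53.

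**Figure D2:**
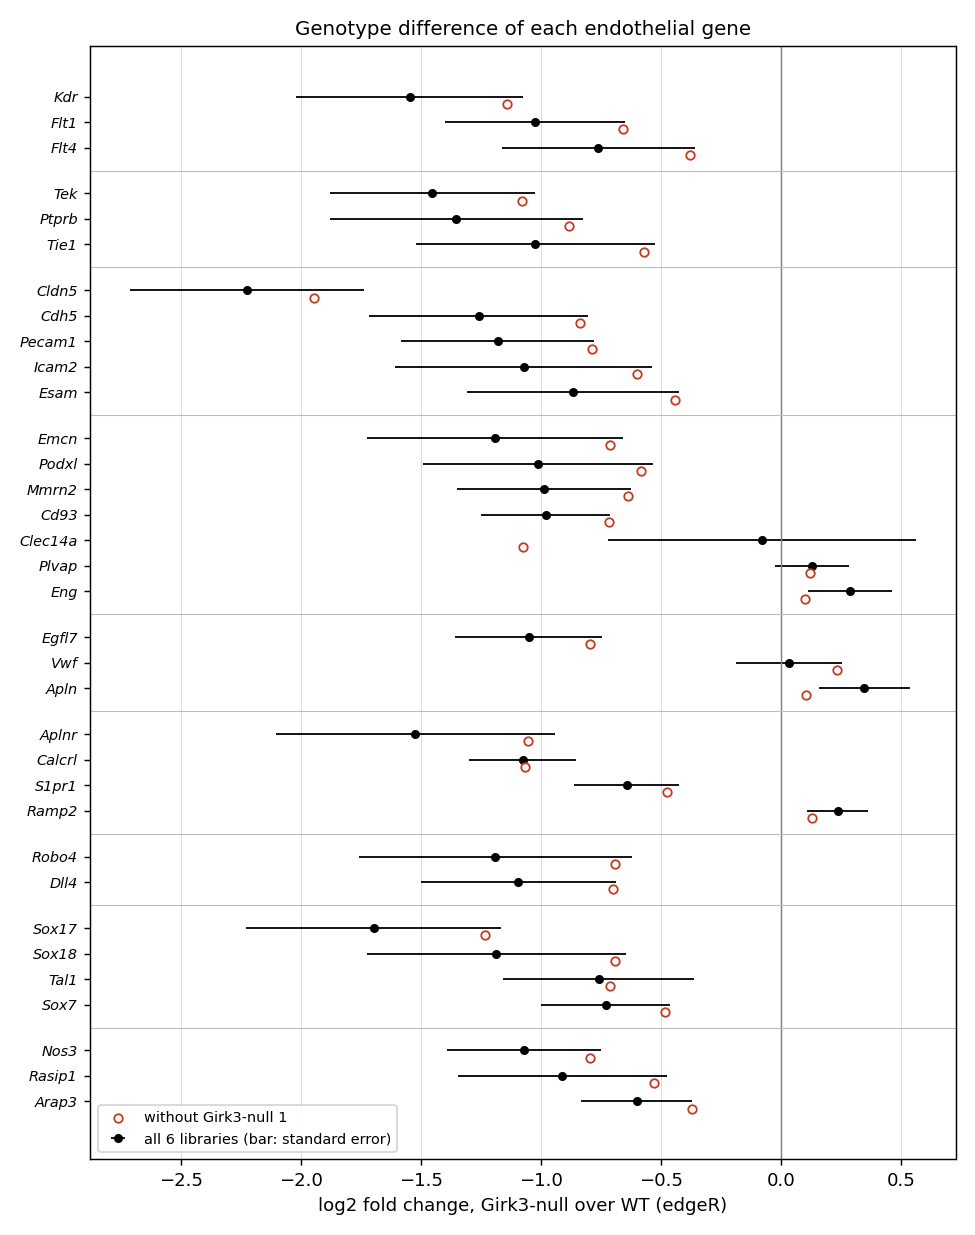
Log2 fold change of each gene, Girk3-null over wild type, with all 6 libraries (black, bars are standard errors) and without Girk3-null replicate 1 (open red circles), grouped by role. Points left of 0 are lower in Girk3-null libraries; Cldn5 lies farthest left at -2.23, and Clec14a moves most when the library is left out, from -0.08 to -1.08.

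How the genes vary among themselves is clearest per library. Girk3-null replicate 1 was the lowest library for 28 of the 34 genes, whereas 25.3% of all tested genes were lowest there. Wild type replicate 2 was the highest for 24 of the 34, against 21.2% of all tested genes. Within the Girk3-null group the highest library exceeded the lowest by a median factor of 3.35 over the 34 genes, and within wild type by 1.56. The mean of Girk3-null replicates 2 and 3 exceeded replicate 1 by a median factor of 2.94, and the wild type mean exceeded that of replicates 2 and 3 by a median factor of 1.62. By the ratio of replicates 2 and 3 to replicate 1, Robo4, Emcn and Sox18 led, at 6.59, 5.71 and 5.66, and by highest over lowest library Robo4, Sox18 and Ptprb led, at 7.02, 6.16 and 6.10. Calcrl, Tal1 and Plvap were nearly level by the first of these (1.014, 1.09 and 0.983). Ramp2, Eng, Apln and Clec14a were higher in replicate 1 than in the mean of replicates 2 and 3, at 0.808, 0.703, 0.644 and 0.254.

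The numbers in the sample titles fall below 200 (wild type 1 and 2, Girk3-null 1) and above 200 (the other 3 libraries), and what they stand for is not given. Among libraries below 200 the log2 ratio of Girk3-null to wild type had a median of -2.35 over the 34 genes, with 29 negative. Among those above 200, where 1 wild type library meets 2 Girk3-null libraries, the median was -0.33 with 27 negative and a range of -0.84 (Sox17) to 0.42 (Clec14a). Kdr, Tek and Cldn5 then had log2 ratios of -0.55, -0.47 and -0.65, and Podxl, Rasip1 and Plvap had 0.012, 0.035 and -0.0036. The subsets were not tested on their own. The library with the male pattern is the sole Girk3-null library below 200, so the 2 features cannot be told apart. With the title number as a covariate the median was -1.32, with 0 of 34 genes called by edgeR.

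Per length, the most abundant of the 34 in wild type were Apln (10.8 ± 0.982 RPKM), Cdh5 (10.7 ± 3.17) and Ramp2 (10.5 ± 0.469; mean ± SD, n = 3), followed by S1pr1 and Cd93. These 3 leaders do not differ beyond their spread, and the level of Ramp2 carries the uncertainty of its shared exons here and in the shares that follow. In Girk3-null libraries the order was Apln (12.7 ± 3.90 RPKM), Ramp2 (11.5 ± 1.81) and Eng (7.26 ± 1.77), and Cdh5 had rank 5 at 4.09 ± 2.39. Apln, Ramp2, Eng and Plvap, a set chosen after their values were seen, took 25.4%, 22.1% and 33.4% of the summed RPKM of the 34 genes in wild type replicates 1, 2 and 3. They took 67.3%, 41.4% and 36.9% in Girk3-null replicates 1, 2 and 3. The sum over all 34 was 120.2, 145.8 and 93.1 RPKM in wild type and 64.4, 79.1 and 79.6 RPKM in Girk3-null libraries, so the groups did not overlap on this measure either.

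**Figure D3:**
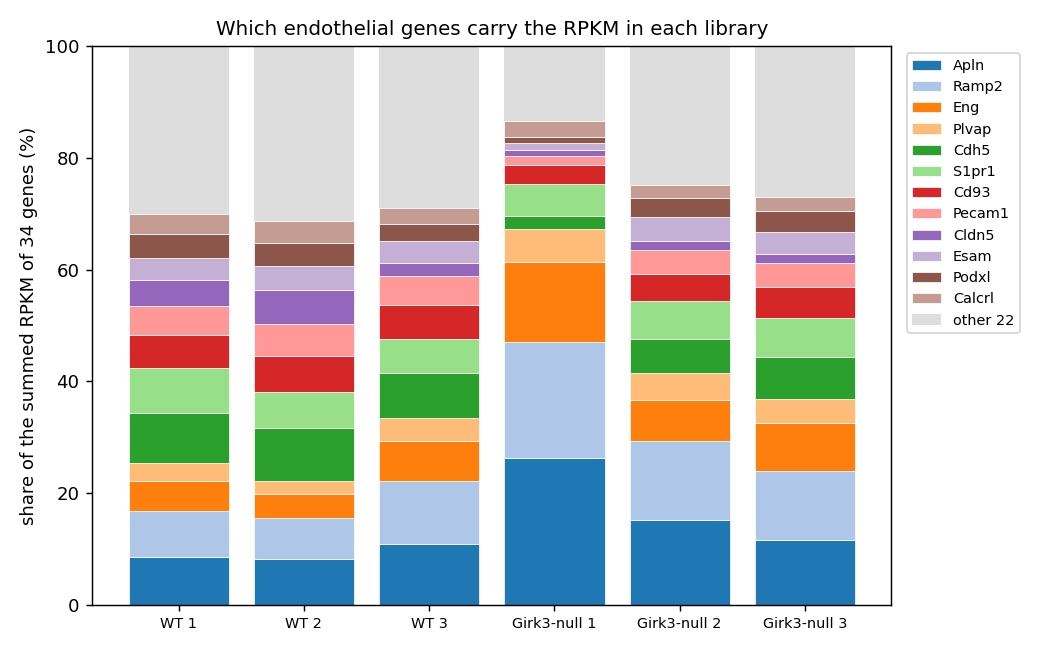
Share of the summed RPKM of the 34 genes (percent, 1 bar per library) taken by 12 named genes and by the other 22 together. The lowest 4 segments (Apln, Ramp2, Eng and Plvap) make up 67.3% in the first Girk3-null library and 22.1% to 41.4% elsewhere.

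Further endothelial genes outside the 34 gave 75 symbols, of which 72 could be tested. Of these 59 had negative log2 fold changes with a median of -0.63, and 27 were lower and 2 higher without overlap between groups (background 10.2% and 9.86%). edgeR called 0, and DESeq2 called 8 lower and 0 higher (background 0.997% and 1.14%). Without Girk3-null replicate 1, 58 of 75 were negative with a median of -0.45, and 29 were lower and 5 higher without overlap (background 14% and 14.3%). All 5 genes of angiogenic sprouts were negative (median -0.98), 4 of them without overlap, among them Cxcr4, a chemokine receptor of tip cells (-1.08), and Esm1, a proteoglycan of tip cells (-1.02). Of 28 further pan-endothelial genes 25 were negative (median -0.81), led by Cav1, the coat protein of caveolae (-0.85), and Cavin2, listed as Sdpr (-1.65). Cav1 averaged 173 CPM in wild type, against 40.7 CPM for Cdh5, and which cells its RNA came from was not tested. Capillary genes (5 of 6 negative, median -0.71) included Cd36, a fatty acid transporter (-0.82), and Gpihbp1, which anchors lipoprotein lipase to capillaries, at 1.20 to 4.03 CPM in wild type and 0.624 to 1.15 CPM in Girk3-null libraries.

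Arterial and venous genes had medians closer to 0, and lymphatic genes did not. In wild type libraries the arterial genes summed to 180 to 214 CPM and the venous genes to 400 to 407 CPM. The further transcription factors below summed to 280 to 353 CPM there, while Cdh5 averaged 40.7 CPM. Which cells the RNA of these lists came from was not tested. Sox17 and Dll4, both called arterial above, had log2 fold changes of -1.70 and -1.10. Of 10 tested arterial genes 6 were negative (median -0.041), and 0 had groups without overlap (background 10.2% lower and 9.86% higher). Hey1 and Notch4, which act in Notch signalling, had the smallest p-values (log2 fold changes -0.66 and -0.65). Of 7 venous genes 5 were negative (median -0.38), led by Selp, or P-selectin (-0.72), and Vcam1 (-1.06). All 6 lymphatic genes were negative (median -0.79), with Pdpn (-0.35), which other cells of the bone end also express, and Reln (-1.01) at the smallest p-values. Only 1 of the 6 was lower without overlap, and without Girk3-null replicate 1 the lymphatic median was -0.46. Of 8 further transcription factors 6 were negative (median -0.35), led by Lmo2 (-1.02) and Bcl6b (-1.25). Of 2 tested sinusoidal genes 1 was negative (median -0.16). Without Girk3-null replicate 1, 1 of 3 was negative with a median of 0.24, and 1 was higher without overlap (background 14.3%).

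The ligands that act on the receptors among the 34 had no common direction. Of 12 tested, 7 were negative with a median of -0.08, and edgeR called 0. Angpt2, a Tie2 ligand made by endothelium itself, had a log2 fold change of -0.91, and Angpt1, the activating Tie2 ligand made by stromal cells, had 0.76. Angpt2 measured 17.98 to 24.96 CPM in wild type and 6.51, 12.2 and 14.4 CPM in Girk3-null libraries, without overlap. Angpt1 measured 5.52 to 10.4 CPM in wild type and 13.4, 14.1 and 10.1 CPM in Girk3-null libraries, with a small overlap.

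Markers of other cell types moved with the endothelial genes in part, and their part in the result was not tested. Median log2 fold changes were -1.34 for skeletal muscle, -1.11 for dividing cell, -0.99 for erythroid, -0.67 for pericyte and smooth muscle and -0.48 for macrophage markers, beside -1.03 for the 34 genes. Without Girk3-null replicate 1 these 5 medians were -1.69, -0.89, -0.61, -0.39 and -0.65, beside -0.69. For the counts that follow, 10.2% of all tested genes were lower and 9.86% higher without overlap. DESeq2 called 0.997% of genes lower and 1.14% higher. The 5 dividing cell markers summed to 183 to 337 CPM in wild type and 109 to 145 CPM in Girk3-null libraries, and all 5, Top2a (-1.11) and Ccnb1 (-1.13) among them, were lower without overlap; DESeq2 called all 5. Of 6 skeletal muscle markers 5 were lower without overlap, while their sums met at 21.2 CPM (lowest wild type) and 21.4 CPM (highest Girk3-null). Pericyte and smooth muscle markers had 7 of 10 negative log2 fold changes, with Kcnj8 at -1.46 and Rgs5 at -0.96, and 1 of 10 lower without overlap, and their sums overlapped widely (827 to 1506 CPM against 807 to 1503 CPM). Erythroid markers (9 of 10 tested negative) summed to 78.9 to 277 CPM against 56.6 to 160 CPM, and macrophage markers (8 of 10) to 132 to 198 CPM against 114 to 229 CPM. Megakaryocyte and platelet markers were negative for 1 of 10 and summed to 48.5 to 57.7 CPM in wild type and 58.9 to 70.7 CPM in Girk3-null libraries, above all wild type values. Chondrocyte markers had 1 of 11 negative, a median of 0.67 and sums of 42360 to 73358 CPM against 66567 to 108258 CPM. Of the 11, 4 were higher without overlap and DESeq2 called 4 higher. Their sums in Girk3-null replicates 2 and 3 were 95158 and 108258 CPM, above all wild type values. Without Girk3-null replicate 1, 0 of 11 were negative and the median was 0.75. In that fit 7 were higher without overlap, against 14.3% of all tested genes. Osteoblast markers had 1 of 7 negative and a median of 0.56, with 3 higher and 1 lower without overlap. DESeq2 called 2 of them higher and 1 lower. Without Girk3-null replicate 1 the osteoblast median was 0.40, with 2 of 7 negative. In that fit 4 were higher and 1 lower without overlap, against 14.3% and 14% of all tested genes. The osteoblast sum was 23189 CPM in the first Girk3-null library, against 10141 to 13105 CPM elsewhere, and osteoclast markers were level (300 to 324 CPM against 307 to 343 CPM). In Girk3-null replicate 1 the erythroid, dividing cell and pericyte sums stood at 0.299, 0.395 and 0.714 of their wild type means, and those of macrophages and osteoblasts at 1.39 and 2.05. None of the matched marker genes was at 0 in all 6 libraries.

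**Figure D4:**
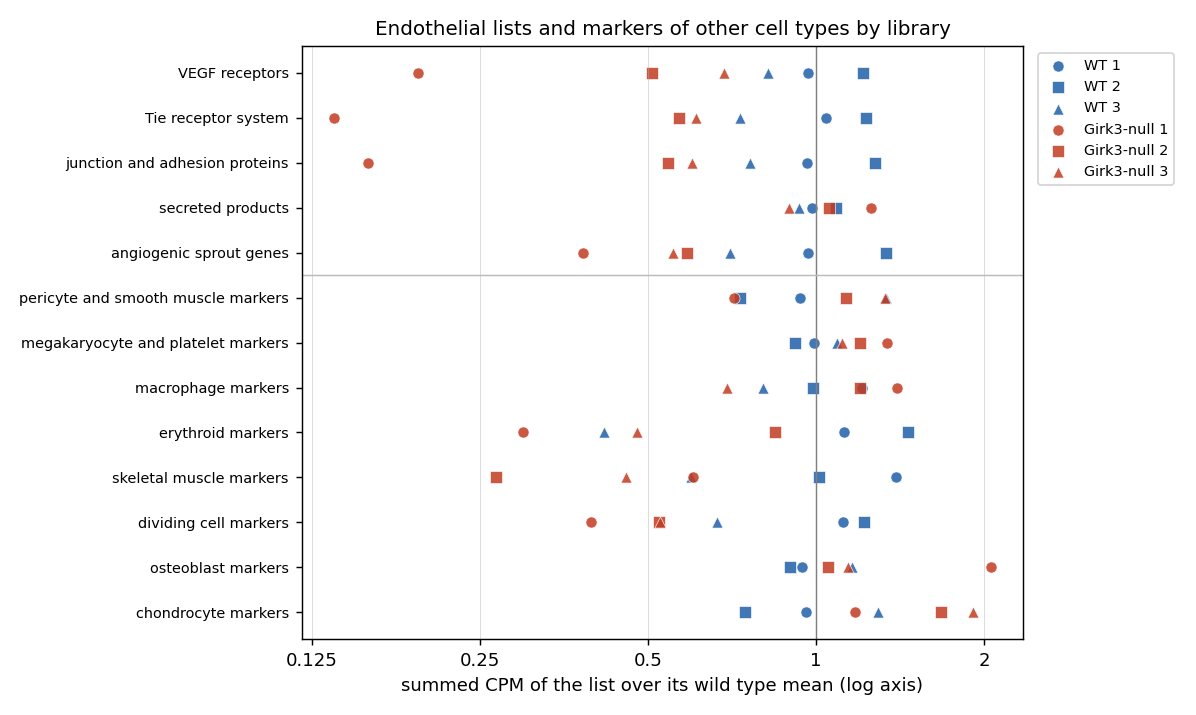
Summed CPM of each gene list in each library, divided by the wild type mean of that list (log axis), with endothelial lists above the grey line and markers of other cell types below it. The VEGF receptors, Tie system and junction genes lie at 0.137 to 0.194 of the wild type mean in Girk3-null replicate 1 and at 0.508 to 0.683 in replicates 2 and 3; erythroid and dividing cell markers are also lowest in replicate 1 (0.299 and 0.395), and osteoblast markers are highest there (2.05).

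Positions and shared exons bear on how single genes can be read. The 34 genes lie on 16 chromosomes, 33 of them on autosomes, and Apln is X-linked. Robo4 and Esam lie 114055 bases apart on chromosome 9, Icam2 and Pecam1 266142 bases apart on chromosome 11, and Calcrl and Aplnr 710814 bases apart on chromosome 2. All 3 pairs had groups that did not overlap in both genes. In GENCODE M21, 33.4% of the exon bases of Ramp2 are shared with Vps25 on the same strand (8508 counts, against 10189 for Ramp2), so the Ramp2 level is uncertain. Nos3 shares 7.12% of its exon bases with the far more abundant Atg9b on the opposite strand (3923 counts against 483), and Egfl7 shares 7.37% with Gm20532 on the same strand and 1.79% with Agpat2 on the opposite strand (5906 counts against 2286). Rasip1 shares 20.4% with Izumo1 on the same strand (96 counts against 959), and Eng shares 1.51% with Fpgs on the opposite strand (4744 counts against 7769). Where counting ignored strand or split shared reads, the values of these 5 genes would include reads of their neighbours.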

How the data were processed

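Each library has a column of whole-number counts per gene in the deposited file, per its header. A second column holds RPKM, which the authors corrected for depth and gene length, per the labels' protocols. Reads went through bcl2fastq 2.19.0 and STAR 2.5.2b on mm10 (submitters' processing notes). Which counting tool, annotation and strand setting followed is not given in the sources used here. Groups follow the genotype label, and replicate numbers follow deposit order and pair nothing. Within groups, chi-square over its degrees of freedom was 26.3 or more for each pair, so none is a copy. All 37 mitochondrial genes were at 0.

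edgeR 4.0.16 (R 4.3.3) was fitted to all 6 libraries with genotype alone, TMM factors and filterByExpr (minimum count 10, minimum total 15), leaving 17554 genes. P-values were adjusted by Benjamini-Hochberg over all of them at 0.05. Standard errors are the absolute log2 fold change over the square root of F. DESeq2 1.42.0 and limma 3.58.1 were alternatives. The fit was tested on simulated data. The 34 genes, their roles and the further lists were chosen with earlier results of these data known. All 34 are named, with full statistics for the 12 smallest p-values and for Apln, the highest by RPKM, and of each further list mostly the 2 smallest. Apela and Ahsp were not matched by symbol. Motifs were matched as exact letters.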

Additional observations from a re-analysis of the deposited data

How the results depend on the processing

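Over 13 alternatives, the median log2 fold change of the 34 genes stayed negative, from -1.32 to -0.64, and lay between -1.32 and -0.69 when 1 library was left out. edgeR called 0 of the 34 in the main analysis. DESeq2 called 6, edgeR without a low-count filter called 2 (Cldn5 and Calcrl), and leaving out each library gave 0 to 2, the 2 being Cldn5 and Calcrl without wild type replicate 3. At an unadjusted p under 0.05 there were 8 to 25 genes when 1 library was left out (8 without wild type replicate 2), against 18. Over all genes, 1 was called in the main analysis, 339 with DESeq2, 53 without the filter, 0 with library size only, limma-voom, log2(RPKM + 0.1), log2(RPKM + 1) or the title number covariate, and 0 to 74 with 1 library left out (74 without wild type replicate 3). Of 442 values of single genes, 419 kept their direction and side of the threshold, 10 passed it and 13 turned sign, all 13 in Clec14a and Vwf. Clec14a was 0.46 with the title number covariate and 0.17 (without wild type replicate 1 or 2), 0.18 and 0.29 (without Girk3-null replicate 2 or 3), and -1.08 without Girk3-null replicate 1. Vwf was -0.079 with library size only, -0.032 with limma-voom, -0.075 and -0.022 on log2(RPKM + 0.1) and log2(RPKM + 1), -0.11 with the covariate, and -0.03, -0.10 and -0.05 without wild type replicate 2, Girk3-null replicate 2 and Girk3-null replicate 3, with 0.23 at the highest (without Girk3-null replicate 1). Library size scaling moved the median of all genes from 0.01 to -0.09 and the negative share from 48.2% to 61.2%. The cause was not tested. No paired analysis was possible because the titles give no shared replicate numbers.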
